A study of Rattus norvegicus with 16 samples.

Results

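The 4 mature microRNAs described here are cut from 2 neighbouring hairpins, Mir653 and Mir489, that lie within the calcitonin receptor gene of the rat. They are rno-miR-653-5p, rno-miR-653-3p, rno-miR-489-3p and rno-miR-489-5p (the prefix for rat is left out below), and were taken by name, any arm, from the 722 mature miRNAs listed in each library. The hairpins were chosen because miR-653-5p differed between brain regions in these same libraries. The region values of the members are therefore given as a description, and tests of the members are kept to the comparison of the rat lines. Small RNA was sequenced from the dorsal raphe, the midbrain nucleus whose serotonin neurons supply the forebrain, and from the amygdala, which takes part in fear and reward learning. The rats were 60 days old and came from 2 lines, the High Responder and Low Responder rats, known as lines selectively bred for how much they move about in an unfamiliar place. There were 4 groups (Low Responder dorsal raphe, High Responder dorsal raphe, Low Responder amygdala, High Responder amygdala) of 4 libraries, 16 in all, with no treatment named in the labels. The labels do not say whether each sample is 1 rat or a pool.

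MicroRNAs are short RNAs that pair with messenger RNAs, mainly through the seed at bases 2 to 8, and repress them. A hairpin is cut into a 5p and a 3p arm, of which usually one is kept and the other is mostly degraded. MicroRNAs inside a gene are often made from that gene's own transcript. The calcitonin receptor, Calcr, is a G-protein-coupled receptor for calcitonin and, together with receptor activity-modifying proteins, for the pancreatic hormone amylin, and in the brain it is known for its role in feeding circuits of the hypothalamus and brainstem. Outside the brain, miR-489 and the calcitonin receptor are both known from resting muscle stem cells. Calcr messenger RNA was not measured in these libraries.

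All 4 sequences were found in RefSeq (build GRCr8) by name and are shown 5′ to 3′ with the seed in capitals, because the seed decides which messages a miRNA can pair with.
miR-653-5p: uUGAAACAuucucuacugaac
miR-653-3p: uUCACUGGgguuuguuucacua
miR-489-3p: aUGACAUCacauauauggcagc
miR-489-5p: uGUCGUAUgcgugaugacacguuc
The seeds differ from each other, and 0 of the other mature sequences among the 693 of the RefSeq table share bases 2 to 8 with any of them. Bases 2 to 7 of miR-653-3p are also found in miR-181b-1-3p, and those of the other members in no other sequence of the table. The GC content was 33.3% in miR-653-5p, 40.9% in miR-653-3p and miR-489-3p and 50% in miR-489-5p, against a median of 47.6% over the 644 listed miRNAs that were matched. miR-653-5p had 21 bases, miR-653-3p and miR-489-3p 22 and miR-489-5p 24.

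The hairpins are shown with both mature arms in capitals, since the counts below compare these arms.
Mir653: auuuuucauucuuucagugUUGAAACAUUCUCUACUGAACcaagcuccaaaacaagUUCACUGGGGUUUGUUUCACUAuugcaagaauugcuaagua
Mir489: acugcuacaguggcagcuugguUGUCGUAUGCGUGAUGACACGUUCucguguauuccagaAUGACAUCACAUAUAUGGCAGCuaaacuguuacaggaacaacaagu
In GRCr8 Mir653 lies at chr4:32647398-32647494 and Mir489 at chr4:32648039-32648144, both on the minus strand, with 544 bases between them. They are the only 2 other genes of the RefSeq table inside the span of Calcr, and Calcr lies on the same strand. The build used for the counts is not given in the sources used here. In the predicted fold of lowest energy the arms of Mir653 formed 16 base pairs with each other (-26.8 kcal/mol for the hairpin) and those of Mir489 18 (-40.4 kcal/mol).

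The Calcr promoter, from 250 bases before to 50 bases after the RefSeq start of the gene, is shown because the 4 miRNAs had their higher level in the same region; motifs that were searched for and found are in capitals.
Calcr promoter, GRCr8 chr4:32691026-32691325, minus strand: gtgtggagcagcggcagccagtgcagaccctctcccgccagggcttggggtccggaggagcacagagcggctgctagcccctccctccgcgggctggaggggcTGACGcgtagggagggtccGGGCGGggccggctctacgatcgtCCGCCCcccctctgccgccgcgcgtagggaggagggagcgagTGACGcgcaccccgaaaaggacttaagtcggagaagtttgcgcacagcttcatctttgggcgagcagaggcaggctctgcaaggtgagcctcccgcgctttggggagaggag
On either strand it held 2 matches to the GC box GGGCGG, which 33.1% of the 33469 RefSeq promoters of this length hold, and 2 to the cyclic AMP response element half-site TGACG, which 21.2% hold. No match to the TATA box TATAAA (14.2% of promoters) or the E-box CACGTG (6.42%) was found in this window. The matches do not overlap each other. The window had a GC content of 69.3%, against a median of 51.7%. A match is a run of letters, and binding of any factor was not measured.

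The libraries held 1741167 to 8134915 counts, so that 3 counts, taken as the floor of detection, stood for 0.369 to 1.72 counts per 1000000 (CPM). Each level below is a CPM corrected by the library's TMM factor (trimmed mean of M values, which lines up libraries on the bulk of their miRNAs). Low Responder dorsal raphe replicate 4, with 2096188 counts, and High Responder amygdala replicate 1, with 1741167, had the lowest totals of their groups. Both were set apart for an alternative fit, chosen with earlier results of these data known. High Responder dorsal raphe replicate 1 (2419326) and amygdala replicate 2 (2561377) were also low. The TMM factor of Low Responder dorsal raphe replicate 4, 0.596, raises its scaled levels, and the factors of the other 15 libraries were 0.871 to 1.27. All 4 members passed the filter on low counts. The filter asks for 4 libraries, the size of a group, at or above 2.12 CPM. miR-489-5p and miR-653-3p passed only through dorsal raphe. miR-489-5p reached that level in 7 of 8 raphe libraries and 0 of 8 amygdala libraries, and miR-653-3p in 8 and 2. miR-489-3p reached it in 8 and 4.

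miR-653-5p was the main product of the locus. It took 78.0% to 93.6% of the counts of the 4 members in raphe libraries and 67.3% to 82.2% in amygdala libraries. Together the members made up 0.0169% to 0.0235% of a raphe library and 0.000897% to 0.00274% of an amygdala library. By mean CPM among the 722 miRNAs, miR-653-5p ranked 212 in dorsal raphe and 388 in amygdala. The rank of miR-653-3p was 381 in raphe and 656 in amygdala, that of miR-489-3p 392 and 606 and that of miR-489-5p 453 and 701. Levels of different miRNAs also reflect how well each is ligated and amplified, so the comparisons that follow are of the same miRNA between libraries or of ratios between libraries.

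miR-653-5p stood at 141, 179, 161 and 269.9 CPM in replicates 1 to 4 of Low Responder dorsal raphe and 111, 155, 123 and 165 CPM in High Responder dorsal raphe. The amygdala levels were 14.9, 20.4, 9.98 and 7.92 CPM in Low Responders and 10.6, 12.2, 13.4 and 8.47 CPM in High Responders. The highest amygdala library was thus below the lowest raphe library in both lines. Without the TMM factor, Low Responder dorsal raphe replicate 4 stood at 161 CPM (337 counts), within the 131.7 to 191 CPM of the other raphe libraries. The amygdala values rest on 20 to 111 counts a library. The group means fell in the order Low Responder raphe (187.6 ± 57.1 CPM, SD, n = 4), High Responder raphe (138 ± 26.0), Low Responder amygdala (13.3 ± 5.56) and High Responder amygdala (11.2 ± 2.12). The lines overlapped within each region. Averaged over the lines the log2 fold change of amygdala over raphe was -3.72 (SE 0.25), a 13.2-fold lower level. It was -3.81 (SE 0.35) in Low Responders and -3.63 (SE 0.35) in High Responders, and -3.58 on average without Low Responder dorsal raphe replicate 4.

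miR-653-3p, the other arm of the same hairpin, had 19.0, 23.1, 16.6 and 4.81 CPM in Low Responder dorsal raphe and 11.1, 11.4, 15.8 and 11.5 CPM in High Responder dorsal raphe. Replicate 4 of the Low Responders, with 6 counts, was the lowest raphe library here although it was the highest for miR-653-5p. In amygdala the level was 2.29, 1.29, 1.74 and 0.396 CPM in Low Responders and 0, 2.22, 2.31 and 0.941 CPM in High Responders. High Responder amygdala replicate 1 had 0 counts of miR-653-3p, which at its depth allows up to 1.72 CPM, and Low Responder amygdala replicate 4 had 3 counts. The regions did not overlap, and the lines overlapped in both. The group means were 15.9 ± 7.85 CPM in Low Responder raphe (19.6 ± 3.25 in the 3 libraries without replicate 4), 12.5 ± 2.24 in High Responder raphe, 1.43 ± 0.801 in Low Responder amygdala and 1.37 ± 1.11 in High Responder amygdala (SD, n = 4). The averaged log2 fold change of amygdala over raphe was -3.29 (SE 0.41), with -3.54 (SE 0.57) in Low Responders and -3.04 (SE 0.58) in High Responders, and -3.40 on average without that replicate.

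miR-489-3p, the more abundant arm of the second hairpin, varied least between raphe libraries after TMM scaling. Without the TMM factors it stood at 12.0 ± 1.90 CPM and miR-653-5p at 158 ± 18.5 CPM in raphe (SD, n = 8). miR-653-5p then varied less relative to its mean. The scaled level of miR-489-3p was 9.99, 12.7, 12.1 and 13.6 CPM in Low Responder dorsal raphe and 9.79, 12.8, 13.3 and 11.5 CPM in High Responder dorsal raphe. In amygdala it stood at 2.98, 3.12, 1.52 and 0.792 CPM in Low Responders and at 2.66, 2.96, 1.32 and 1.18 CPM in High Responders, from 5 to 17 counts a library. No amygdala library reached the level of a raphe library. The means of the lines were alike in size, 12.1 ± 1.53 and 11.9 ± 1.58 CPM in raphe and 2.10 ± 1.14 and 2.03 ± 0.910 CPM in amygdala (Low and High Responders, SD, n = 4 each). The averaged log2 fold change was -2.57 (SE 0.29), a 5.96-fold lower level in amygdala, with -2.52 (SE 0.40) in Low and -2.62 (SE 0.42) in High Responders and -2.53 on average without Low Responder dorsal raphe replicate 4.

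miR-489-5p was the scarcest of the 4. Its level was 6.56, 5.65, 7.44 and 0 CPM in Low Responder dorsal raphe and 2.61, 4.52, 5.44 and 7.18 CPM in High Responder dorsal raphe. The 0 is again that of Low Responder replicate 4, where 0 counts allow up to 1.43 CPM before scaling. In amygdala it lay between 0.235 and 1.32 CPM, from 1 to 8 counts a library, at or near the floor. Through replicate 4 the regions overlapped for this miRNA, and the other 7 raphe libraries, at 2.61 to 7.44 CPM, lay above every amygdala library. The group means were 4.91 ± 3.35 CPM in Low Responder raphe, 4.94 ± 1.90 in High Responder raphe, 0.762 ± 0.174 in Low Responder amygdala and 0.707 ± 0.459 in High Responder amygdala (SD, n = 4). The averaged log2 fold change was -2.72 (SE 0.47), with -2.78 (SE 0.64) in Low and -2.67 (SE 0.68) in High Responders and -2.85 on average without replicate 4.

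**Figure D1:**
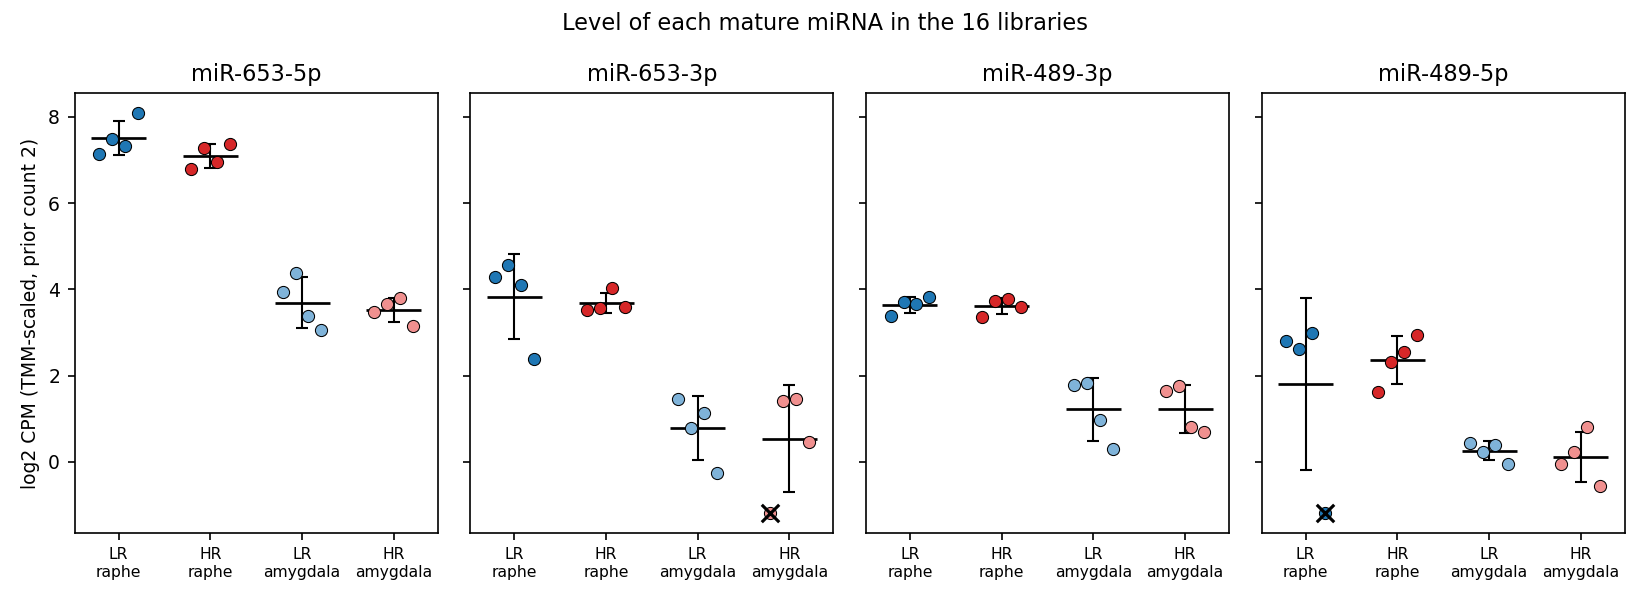
Log2 CPM (TMM-scaled, prior count 2) of each miRNA in Low Responder (LR) and High Responder (HR) libraries of dorsal raphe and amygdala; points are libraries in the order of replicates 1 to 4, lines are means with SD (n = 4), and crosses mark libraries with 0 counts. Raphe libraries lie above amygdala libraries, except that of Low Responder replicate 4 for miR-489-5p.

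edgeR's quasi-likelihood test at an adjusted p of 0.05 called 24.3% of the 639 miRNAs between the regions when averaged over the lines, 14.9% lower and 9.39% higher in amygdala. In Low Responders alone 14.1% were called (10.5% lower, 3.6% higher), in High Responders alone 13.1% (6.57% each way). The members were chosen on this difference. In addition, miR-653-3p and miR-489-5p passed the low count filter only through raphe, and miR-489-3p mostly so. These shares are therefore given as background only and no call is given for a member. Over all miRNAs 60 were higher and 95 lower (100 and 103 with DESeq2). The split was 23 and 67 in Low Responders (34 and 54 when scaled by library totals). It was 42 and 42 in High Responders (40 and 71 when scaled by library totals). In 4.69% of the miRNAs tested all 8 amygdala libraries lay below all 8 raphe libraries, and miR-653-5p, miR-653-3p and miR-489-3p, by their choice, were among these. By log2 fold change miR-653-5p had the 2nd lowest value of the 639, miR-653-3p the 3rd, miR-489-5p the 8th and miR-489-3p the 10th. The median over all 639 was -0.08.

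**Figure D2:**
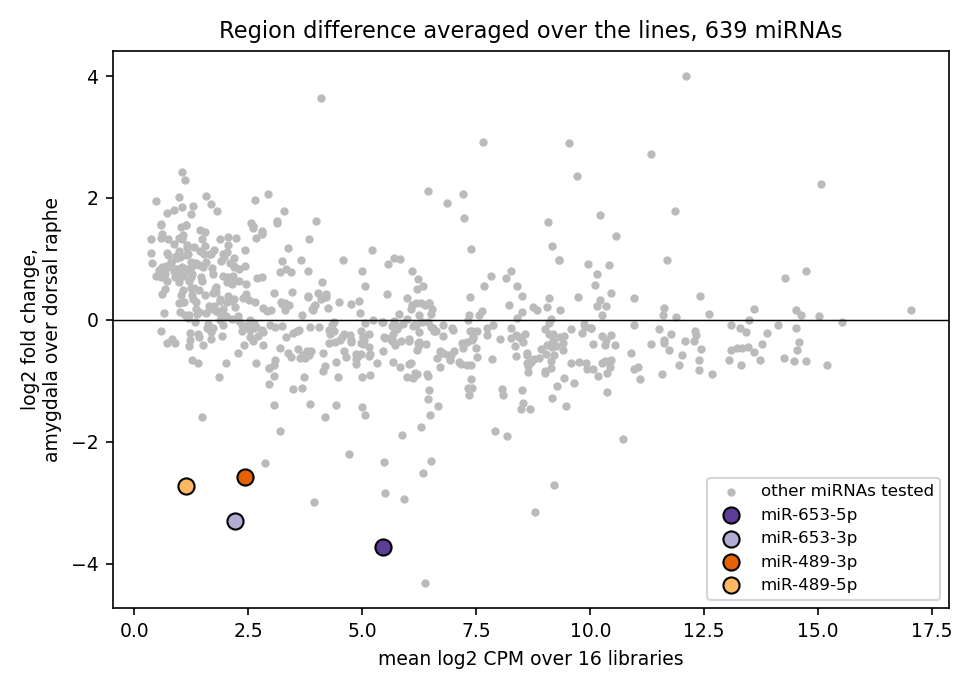
Average over the lines of the log2 fold change, amygdala over dorsal raphe, against mean log2 CPM over 16 libraries for 639 miRNAs (grey points), with the 4 members in colour. The members lie at -2.57 to -3.72, miR-653-5p at a higher level than the other 3.

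The regions also differed in miRNAs listed for cell types and regions, whose part in the difference of the members was not tested. The lists were chosen with earlier results of these data known, so the calls below are a description and no support for the lists. The 10 hindbrain miRNAs of the Hox clusters summed to 423 to 3935 CPM in Low Responder and 389 to 479.7 CPM in High Responder raphe, against 36.1 to 143.9 and 56.9 to 193 CPM in amygdala. The 3935 CPM is that of Low Responder replicate 4, and the others of its group had 423 to 432.7 CPM. Of the 6 hindbrain miRNAs tested 2 were lower in amygdala, miR-10b-5p at -4.30 (SE 0.60) and miR-10a-5p at -2.31 (SE 0.47); the other 4, miR-10a-3p (-0.22), miR-196a-3p (0.32), miR-196a-5p (0.51) and miR-196c-3p (1.08), did not pass. The 11 miRNAs listed for forebrain neurons (miR-128, miR-132, miR-212, miR-221 and miR-222, any arm) were the reverse. Their sums were 14600 to 36160 CPM in raphe and, in amygdala, 56352 to 83291 CPM in Low and 100103 to 121552 CPM in High Responders. All 11 were called higher in amygdala by edgeR. No miRNA that defines serotonin neurons was on a list. The 13 muscle miRNAs, listed because miR-489 is known from muscle stem cells, summed to 1846 to 5259 CPM in raphe and 441 to 797 CPM in amygdala, with 6 lower and 1 higher of the 10 tested. Their defining member miR-1-3p had at least 526 counts and miR-206-3p at least 37 in every library. The 5 oligodendrocyte miRNAs summed to 10273 to 40553 CPM in raphe and 4960 to 13595 CPM in amygdala, with 3 of 5 lower. The 4 choroid plexus miRNAs summed to 1535 to 3827 CPM in raphe and, in amygdala, to 999 to 9229 CPM in Low and 8269 to 17106 CPM in High Responders, with 3 of 4 higher; these are also the miRNAs of Trpm3 and Trpm1 described further on. The erythrocyte (70.8 to 350.1 CPM) and general neuron lists (126171 to 229028 CPM) had 0 of 4 members each past the threshold. No defining marker was at 0 in any library. In 6 of the 7 lists, all but the erythrocyte list, Low Responder replicate 4 had the highest TMM-scaled sum of the 8 raphe libraries. Its TMM factor of 0.596 raises all its sums, so this order rests in part on the scaling. In tissue samples, fewer cells that make a miRNA and less of it in each cell cannot be told apart.

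The comparison of the lines asks whether the members differ between the 2 bred lines. With only these 2 lines, the bred trait cannot be told apart from other differences between them. None of the 4 members passed the test in either region, though miR-653-3p and miR-489-5p were too scarce in amygdala for it to decide there. The SEs and intervals were not given by edgeR but worked out from each log2 fold change and the F statistic of its test. Such an SE is unstable where the fold change is near 0. For miR-489-5p in amygdala it was 0.66, but 0.33 without High Responder dorsal raphe replicate 1 and 3.59 without High Responder amygdala replicate 2. The intervals are thus a rough guide to possible sizes. In dorsal raphe miR-653-5p had a log2 fold change of High over Low Responders of -0.43 (SE 0.31, 95% interval -1.08 to 0.21, adjusted p = 0.777 in edgeR's quasi-likelihood test). Without Low Responder replicate 4 it was -0.08 (SE 0.28), and scaled by library totals it was -0.14 (SE 0.30). miR-653-3p had -0.38 (95% interval -1.42 to 0.66, adjusted p = 0.948 in edgeR) and -0.51 without that library. miR-489-3p had -0.01 (95% interval -0.79 to 0.76, adjusted p = 0.995 in edgeR) and 0.17 without it. miR-489-5p had -0.09 (95% interval -1.27 to 1.09, adjusted p = 0.991 in edgeR) and -0.29 without it. In this comparison edgeR called 0 of the 639 miRNAs (0%), where 70 (11%) had an unadjusted p under 0.05, and DESeq2 called 0.

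In amygdala miR-653-5p had a log2 fold change of -0.24 between the lines (SE 0.33, 95% interval -0.93 to 0.44, adjusted p = 0.774 in edgeR). The forebrain neuron sums given above did not overlap between the lines in amygdala, and their part in this comparison was not tested. The log2 fold change of miR-489-3p was -0.11 (95% interval -1.03 to 0.80, adjusted p = 0.936 in edgeR). miR-653-3p and miR-489-5p, at 0 to 14 and 1 to 8 counts, had 0.12 (95% interval -1.18 to 1.42) and 0.02 (-1.38 to 1.42), with adjusted p of 0.945 and 0.993 in edgeR. Both were in this test only through their raphe libraries, as 2 and 0 of the 8 amygdala libraries reached the filter's 2.12 CPM. The test therefore decides nothing on these 2 members in amygdala. With same-numbered libraries paired, in a fit of the 8 amygdala libraries alone, miR-653-5p had -0.19 (95% interval -0.86 to 0.49, adjusted p = 0.738 in edgeR) and miR-489-3p -0.0067 (95% interval -0.94 to 0.93, adjusted p = 0.993 in edgeR), and the other members did not pass that fit's filter. A 2-fold difference is 1 on the log2 scale. In the TMM-scaled fit of all libraries without pairs, it lies outside the interval only for miR-653-5p here and for miR-489-3p in dorsal raphe. For a higher level in High Responders it also lies outside for miR-653-5p and miR-653-3p in dorsal raphe and for miR-489-3p in amygdala. These exclusions depend on the fit and on SEs worked out from the F statistic. That of miR-489-3p in dorsal raphe rests on a log2 fold change of -0.01, where such an SE is unstable. With library totals miR-653-5p in amygdala was -0.37 (SE 0.31) and miR-489-3p in dorsal raphe 0.21 (SE 0.42). With only the 2 groups compared, miR-489-3p in amygdala was -0.11 (SE 0.61). Here edgeR again called 0 of the 639 (0%), where 65 (10.2%) had an unadjusted p under 0.05, and DESeq2 called 20. No member's groups were without overlap between the lines, where 4.23% of the miRNAs tested were so in dorsal raphe and 8.76% in amygdala.

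The interaction asks whether the region difference itself differed between the lines. It was 0.19 for miR-653-5p (SE 0.45, 95% interval -0.76 to 1.14, adjusted p = 0.931 in edgeR), and -0.20 without Low Responder dorsal raphe replicate 4. For miR-653-3p it was 0.50 (-1.18 to 2.18), for miR-489-3p -0.10 (-1.29 to 1.09) and for miR-489-5p 0.11 (-1.84 to 2.05), with adjusted p of 0.890, 0.991 and 0.991 in edgeR. The interaction of miR-653-3p and miR-489-5p rests in part on amygdala counts too low to decide it. For the interaction edgeR called 0 of 639 miRNAs (0%), where 81 (12.7%) had an unadjusted p under 0.05, and DESeq2 called 12.

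**Figure D3:**
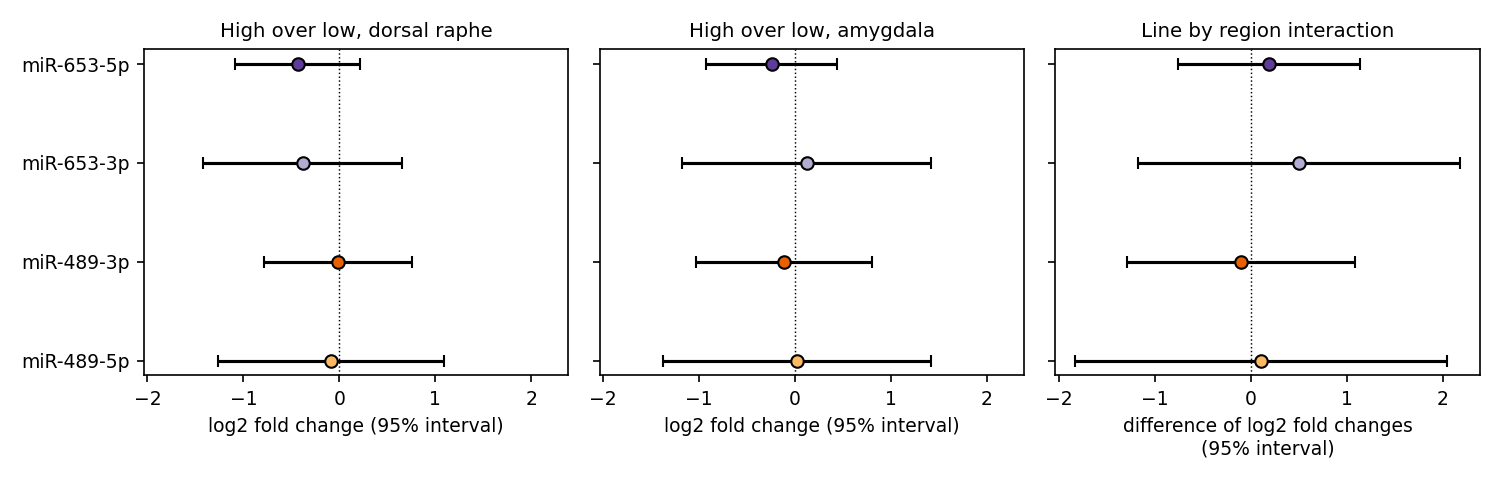
Log2 fold change of each miRNA, High over Low Responders, in dorsal raphe (left) and amygdala (middle). The right panel is the difference of the region effects between the lines. Points have 95% intervals worked out from edgeR's log2 fold change and F statistic. All 12 intervals include 0.

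Ratios between the members need no library scaling. The 5p arm of miR-653 took 88.1%, 88.6%, 90.6% and 98.3% of that hairpin's counts in Low Responder dorsal raphe and 90.9%, 93.2%, 88.6% and 93.5% in High Responder dorsal raphe. The share of 98.3% (337 and 6 counts, 95% Wilson interval 96.2% to 99.2%) is that of Low Responder replicate 4, and its interval lies above those of all other raphe libraries, which reach up to 95.1%. In amygdala the share was 85.2% to 95.2% in Low Responders and 84.6% to 100% in High Responders, the latter at 20 and 0 counts. Summed over libraries it was 90.8% in raphe (5437 and 553 counts) and 89.7% in amygdala (452 and 52 counts, Wilson interval 86.7% to 92.0%). The summed shares were thus close, but single libraries ran from 88.1% to 98.3% in raphe and from 84.6% to 100% in amygdala. Whether the share differs between the regions was not tested. The Wilson intervals cover counting error only.

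The log2 ratio of miR-653-5p to miR-653-3p did not pass between the lines (exact two-sided permutation test, n = 4 each, 4 ratio tests adjusted together, smallest possible p = 0.0286). In dorsal raphe it was 3.46 ± 0.41 in High and 3.70 ± 1.34 in Low Responders (exact permutation p = 0.943, adjusted p = 0.971). In amygdala it was 3.31 ± 1.40 and 3.27 ± 0.85 (exact permutation p = 0.971, adjusted p = 0.971). Without replicate 4 the Low Responder raphe ratio was 3.03 ± 0.20 (n = 3), which turns the difference between the lines from -0.24 to 0.43 (exact permutation p = 0.143). Without High Responder replicate 1, which had 0 counts of miR-653-3p, the amygdala difference turns from 0.03 to -0.65 (exact permutation p = 0.314).

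The arms of miR-489 were more even. The 3p arm took 60.4%, 69.1%, 62.0% and 100% of the hairpin's counts in Low Responder dorsal raphe and 78.9%, 74.0%, 71.1% and 61.6% in High Responder dorsal raphe. Replicate 4 of the Low Responders again stood apart, with 17 counts of the 3p and 0 of the 5p arm (Wilson interval 81.6% to 100%). In amygdala the share was 50% to 83.3%, from 6 to 21 counts a library. Over all raphe libraries it was 68.2% (426 and 199 counts) and over all amygdala libraries 71.1% (69 and 28 counts, Wilson interval 61.4% to 79.2%).

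In that library the scarcer arm of both hairpins was low at once. A ratio of the scarcer to the more abundant arm below that of the other 7 raphe libraries was found there for 84 hairpins, 37.8% of the 222 with both arms tested. For miR-653 it lay 1.87 below the lowest of the others on the log2 scale, a gap at least reached by 27 hairpins (12.2%), and for miR-489 3.29 below, reached by 8 (3.60%). Over the 220 other hairpins the median of this ratio did not stand apart there, at 0.00048 from the mean of the 16 libraries on the log2 scale, with -0.19 to 0.57 in the others. The part of depth or RNA quality in this was not tested.

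**Figure D4:**
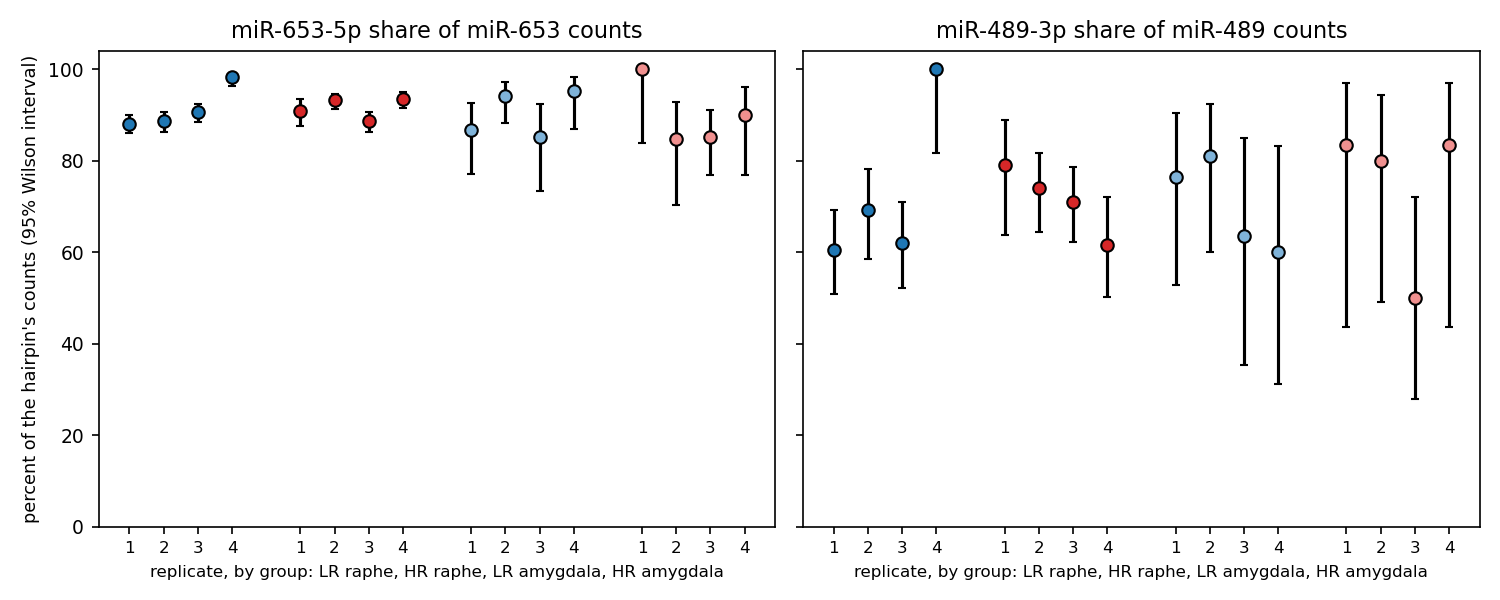
Share of miR-653-5p in the counts of both miR-653 arms (left) and of miR-489-3p in those of both miR-489 arms (right), in percent, for each library by group and replicate, with 95% Wilson intervals. Low Responder dorsal raphe replicate 4 lies at 98.3% and 100%, above the other raphe libraries, and the amygdala intervals are wide because counts are few.

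Between the hairpins the proportion differed by region. The log2 ratio of miR-653-5p to miR-489-3p was 3.80, 3.81, 3.72 and 4.27 in Low Responder raphe and 3.48, 3.59, 3.19 and 3.83 in High Responder raphe. In amygdala it was 2.28, 2.67, 2.63 and 3.22 in Low and 1.90, 1.98, 3.26 and 2.73 in High Responders. The regions overlapped narrowly, with 3.71 ± 0.31 in raphe and 2.58 ± 0.51 in amygdala (SD, n = 8 libraries each). In counts, miR-653-5p made up 92.7% of the pair in raphe (5437 and 426 counts, Wilson interval 92.0% to 93.4%) and 86.8% in amygdala (452 and 69 counts, Wilson interval 83.6% to 89.4%). These intervals cover counting error only. Single libraries ran from 90.2% to 95.2% in raphe and from 80% to 91.0% in amygdala, and so overlapped. The proportion repeats, as a ratio, the difference between -3.72 and -2.57 given above and has no test of its own. Between the lines the ratio was 3.52 ± 0.26 in High and 3.90 ± 0.25 in Low Responder raphe (difference -0.38, exact permutation p = 0.114, adjusted p = 0.457). In amygdala it was 2.47 ± 0.65 and 2.70 ± 0.39 (exact permutation p = 0.571, adjusted p = 0.971). Taken as 4 pairs by number, the amygdala libraries gave p = 0.5 for this ratio and p = 0.875 for that of the miR-653 arms (exact permutation by sign flips, smallest possible p = 0.125, so that it cannot pass). The ratio therefore passed in neither region.

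Within a region the members varied together to different degrees. Between miR-653-5p and miR-489-3p Pearson's r of log2 CPM was 0.58 over the 8 raphe libraries (0.44 without Low Responder replicate 4) and 0.75 over the 8 amygdala libraries. Between the arms of miR-653 it was -0.54 in raphe, 0.38 without that replicate, and 0.44 in amygdala. Between miR-653-3p and miR-489-5p, the scarcer arms, it was 0.87 in raphe, 0.47 without that replicate, and 0.59 in amygdala. These are descriptions: both values of a point share a library, its depth and its scaling, and at a few counts a library they are imprecise.

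**Figure D5:**
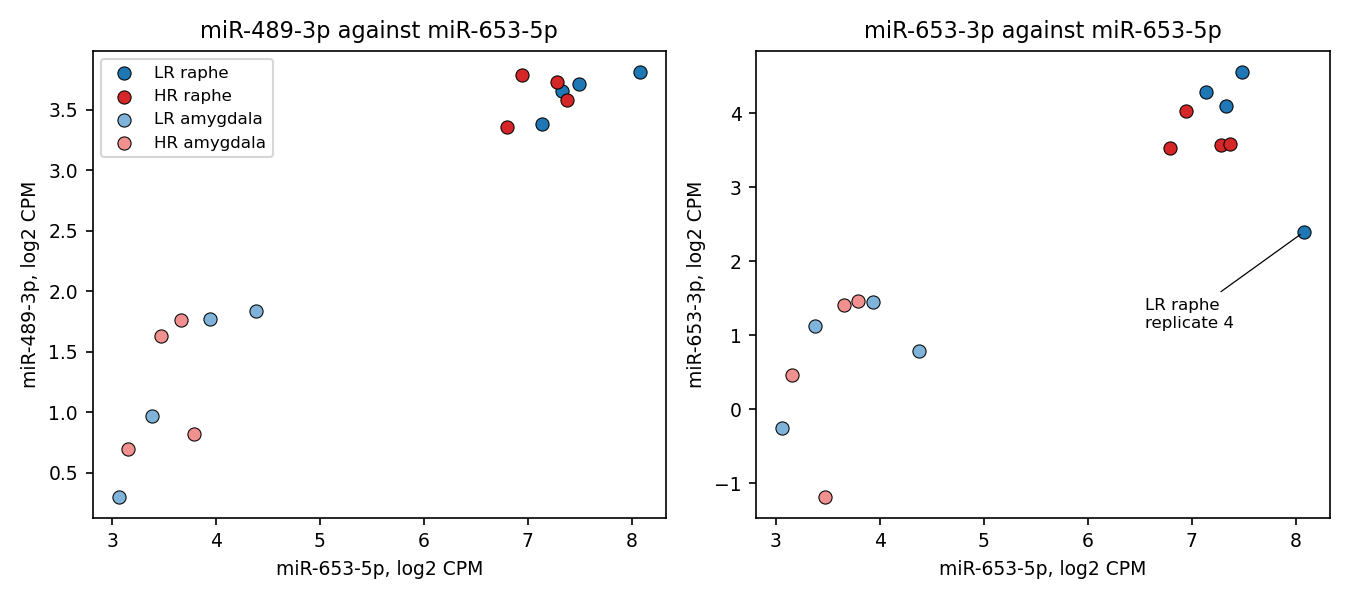
Log2 CPM of miR-489-3p (left) and miR-653-3p (right) against miR-653-5p in 16 libraries, coloured by line and region. The libraries form a raphe and an amygdala cluster in both plots, and Low Responder dorsal raphe replicate 4 lies below the raphe cluster for miR-653-3p only.

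miR-653-5p was the one member with a mean of at least 10 CPM over all libraries, and the miRNAs of most similar pattern were sought for it among 406 others of that level. By Pearson's r of log2 CPM over the 16 libraries these were miR-1-3p (0.94), miR-181d-5p (0.94), miR-298-5p (0.94), miR-134-5p (0.92) and miR-133a-3p (0.91). Their log2 fold changes of amygdala over raphe were -1.03 to -2.93. This largely follows from the choice, since the region difference of miR-653-5p weighs heavily in such an r. With the group means taken out, r was 0.75 for miR-134-5p, 0.52 for miR-181d-5p, 0.37 for miR-1-3p, 0.15 for miR-298-5p and -0.52 for miR-133a-3p. When scaled by library totals the same 5 were the most similar, with miR-181d-5p first. miR-489-3p, with a mean under that level, had an r of 0.97 with miR-653-5p, and 0.70 with the group means taken out. Of the 5, miR-133a-3p was thus the one whose deviations within groups ran against those of miR-653-5p.

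Other miRNAs encoded in genes of receptors or ion channels give a setting for the locus. Of 24 such miRNAs listed, 22 were tested, and 6 were higher and 5 lower in amygdala, against 9.39% higher and 14.9% lower of all 639. Their median log2 fold change was -0.13, against -0.08 for all. Those of the Htr2c gene, for the serotonin 2C receptor, had 3 higher and 1 lower of 7, with miR-1298 at 4.00 (SE 0.54). Those of the cation channel genes Trpm3 and Trpm1 had 2 of 2 and 1 of 2 higher, with miR-204-5p at 1.79 (SE 0.35) and miR-211-5p at 1.68 (SE 0.33), which are near-identical in sequence and may share reads. Those of the chloride transporter gene Clcn5 had 0 higher and 4 lower of 9, and the most abundant, miR-532-5p, did not pass at -0.69 (SE 0.29). miR-224-5p of the GABA receptor gene Gabre (-0.54) and miR-346 of the glutamate receptor gene Grid1 (-0.13) did not pass. Between the lines and in the interaction 0 of 22 passed.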

How the data were processed

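Small RNA from dorsal raphe and amygdala was extracted with a Qiagen miRNeasy kit and made into libraries by Illumina protocols with Pippin size selection, per the labels' protocols. The authors deposited raw read counts for 722 mature miRNAs, 1 table a library. Tools named in the submitters' processing notes are cutadapt 1.3.1, Bowtie2 and bedtools 2.14.2. Their settings, the build and annotation, and how reads with several matches were treated were not given in the sources used here.

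Counts were used as deposited. Chi-square per degree of freedom was at least 55.4 in each of the 120 pairs of libraries, so none agreed within sampling noise. edgeR 4.0.16 in R 4.3.3 kept 639 miRNAs with filterByExpr (minimum count 10, minimum total 15), scaled by TMM and fitted a robust quasi-likelihood model of the 4 group means. Benjamini-Hochberg adjustment ran over all 639, with a threshold of 0.05. The SE of a log2 fold change was its size divided by the square root of the F statistic, for region values too. Log2 CPM used a prior count of 2, and ratios of counts had 0.5 added to each count. The fit was tested on simulated counts. Hairpins were folded with ViennaRNA.

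The members and lists were chosen with earlier results of these data known. The naming rule took all members, the 5 miRNAs of most similar pattern for members with a mean of at least 10 CPM, an example for each host gene of the receptor and channel list, and miRNAs sharing a seed. Libraries held 1741167 to 8134915 counts. Alternatives were other scalings, DESeq2 1.42.0, no filter, a replicate block, fits of the 2 groups compared and fits without single libraries. The labels do not say what the replicate numbers 1 to 4 stand for. Between the lines, amygdala libraries of the same number deviated together (correlations over miRNAs of 0.69, 0.29, 0.21 and 0.51, each above 0.1). The numbers are treated as pairing them in the paired amygdala fit and the paired ratio tests. The main fit, its intervals and the other ratio tests do not use the pairs. For every other combination of groups some number gave a correlation of 0.1 or less. As separate animals are not stated, p-values cover only the spread among the samples given, which may be technical.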

Additional observations from a re-analysis of the deposited data

Results flagged for a closer look

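Values that lay far from the other 3 libraries of their group were sought in 28 sets of 4 libraries, of which chance alone would mark about 1 in 20, and 4 were found. Low Responder dorsal raphe replicate 4 gave 3 of them. Its log2 CPM of miR-489-5p was -1.18, where the other 3 libraries had 2.61 to 2.98. Its log2 ratio of miR-653-5p to miR-653-3p was 5.70, against 2.88 to 3.26. Its log2 ratio of miR-653-5p to miR-489-3p was 4.27, against 3.72 to 3.81. In High Responder dorsal raphe, replicate 3 had a log2 CPM of miR-653-3p of 4.02, against 3.53 to 3.58.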

How the results depend on the processing

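All 271 region values of the members under the alternatives were negative, from -3.91 to -2.10. Of the 272 values between the lines or of the interaction, none with an adjusted p passed the threshold (lowest adjusted p = 0.632 in edgeR or DESeq2). DESeq2 gave no adjusted p for miR-489-3p, miR-489-5p and miR-653-3p between the lines in amygdala, nor for miR-489-5p in the interaction. Among the 272 values, 69 changed sign. Without both libraries set apart above (chosen with earlier results of these data known), the region value of miR-653-5p in Low Responders was -3.36. The cause of these changes was not tested. Depth limits the amygdala values of miR-653-3p and miR-489-5p most, at 14 counts or fewer a library.

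Signs changed as follows, in log2. Between the lines in dorsal raphe, miR-489-3p was 0.21 with library totals, 0.095 with RLE factors, 0.11 with DESeq2, 0.0081 with no filter, 0.0021 with the replicate block, 0.13 without both libraries and 0.092 with only the 2 groups compared. There miR-489-5p was 0.0090 with library totals, 0.011 with RLE factors, 0.0012 with DESeq2 and 0.011 with the replicate block. In amygdala, miR-489-5p was -0.12 with library totals and -0.073 with the replicate block, and miR-653-3p was -0.046 with library totals. The interaction of miR-489-5p was -0.13 with library totals, -0.0016 with RLE factors and -0.084 with the replicate block, and that of miR-653-5p was -0.23 with library totals and -0.11 without both libraries. The arm ratio of miR-653 between the lines in amygdala was -0.17 with 1 added to each count. The replicate block changed no call of a member, nor did the block with only the 8 amygdala libraries, which with the paired ratio tests was chosen after seeing the data. Library totals moved the median of all miRNAs by 0.20 between the lines in dorsal raphe, by -0.33 in the interaction, by -0.19 for the regions in High and by 0.14 in Low Responders.

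Of all miRNAs, DESeq2 called 12 in the interaction, 20 between the lines in amygdala and 136 between the regions in High Responders. Without both libraries these counts were 3, 9 and 138. With no filter 1 was called in the interaction, and with library totals 2 between the lines in amygdala.

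When each library was left out in turn, the called miRNAs numbered 0 to 1 in the interaction, 0 to 2 between the lines in amygdala, 61 to 128 for the regions in High Responders (128 without High Responder amygdala replicate 4) and 47 to 94 in Low Responders (47 without Low Responder amygdala replicate 3). The interaction ranged from -0.46 to 0.080 for miR-489-3p, from -0.65 to 0.37 for miR-489-5p, from 0.0086 to 0.81 for miR-653-3p and from -0.20 to 0.35 for miR-653-5p. The amygdala line difference ranged from -0.37 to 0.17 for miR-489-3p, from -0.70 to 0.35 for miR-489-5p, from -0.33 to 0.41 for miR-653-3p and from -0.41 to 0.036 for miR-653-5p. That in dorsal raphe ranged from -0.072 to 0.17 for miR-489-3p, from -0.29 to 0.20 for miR-489-5p, from -0.51 to -0.12 for miR-653-3p and from -0.50 to -0.08 for miR-653-5p. The arm ratio of miR-653 between the lines ranged from -0.65 to 0.35 in amygdala and from -0.51 to 0.43 in dorsal raphe.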
